A study of Homo sapiens with 8 samples.

Results

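The kinetochore and centromere genes are 50 human genes, listed by name, whose proteins mark the centromere, build the kinetochore on it, or police its attachment to the spindle. A gene counted as measured where the platform annotation gave it a probe set; 36 of the 50 were measured, among 14884 named genes. The remaining 14 (CENPB, CENPE, CENPF, CENPJ, CENPS, MIS12, DSN1, NSL1, PMF1, NUF2, SPC24, SPC25, ZW10 and ZWILCH) were not analysed here. No measured member had more than 1 named probe set. Expression was read in MOLM-14, an established human acute myeloid leukaemia line, on 8 Affymetrix arrays. In 4 arrays (shCD39) the cells expressed a short hairpin RNA against ENTPD1, the gene of the surface enzyme CD39, and in 4 arrays (shCTRL) a control hairpin; doxycycline, which turns the hairpins on, was given to both for 72 h. The labels speak of clones without saying how many, and call the arrays of each group technical replicates, so p-values here measure only the spread between arrays. Values are log2 expression from RMA, which scales the arrays to each other, so a change in total RNA per cell cannot be seen; the medians of the deposited arrays still ran from 3.13 to 3.17.

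At each centromere the histone variant CENP-A replaces a canonical histone and is the foundation on which a network of CENP proteins, the constitutive centromere-associated network, stays bound through the cell cycle. In mitosis the KNL1, MIS12 and NDC80 complexes assemble on that base and grip microtubules, the SKA complex strengthens the grip, and the spindle checkpoint delays anaphase until every chromosome is attached. The chromosomal passenger complex at the inner centromere corrects faulty attachments, and shugoshins protect the cohesion between sister chromatids. Many of these genes are transcribed mainly in late S phase, G2 and mitosis, so in a bulk sample fewer dividing cells and less RNA per dividing cell cannot be told apart.

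Correlations between arrays ran from 0.974 to 0.987 over all probe sets. The array shCD39 4 stood apart from its group in its likeness to the shCTRL arrays. Its mean correlation with them was 0.9842, against 0.9765 to 0.9802 for shCD39 arrays 1 to 3. With the other shCD39 arrays it was 0.9792, near the 0.9794 to 0.9807 of arrays 1 to 3. Counts over all members and some adjusted p-values are therefore also given without it, a choice made from the values themselves. Leaving out the array nearest the other group tends to widen differences and narrow the spread, so p-values without it come out too small. They describe the arrays and are not comparable with those from all 8 arrays. These data do not settle whether the label of that array is right, and every mean and fold change over all 8 arrays takes it as labelled. ENTPD1 read 2.42, 2.14, 2.72 and 2.95 in shCD39 arrays 1 to 4, against 3.16, 2.88, 3.21 and 4.12 in the shCTRL arrays (log2 fold change -0.79, SE 0.25, limma adjusted p = 0.178, exact permutation p = 0.0571, two-sided), and shCD39 array 4 lay inside the shCTRL range. Both ENTPD1 means are under 4, the level below which genes are treated as dim here. The shCD39 mean, 2.56, was near those of EPCAM and ALB below. The shCTRL mean, 3.34, was above theirs, which were 2.31 and 2.48 in shCTRL. The probe set is not shown to be above background, so the size of this difference is uncertain and checks the labels only weakly. Of the myeloid markers listed, FLT3 averaged 9.38 in shCD39 and 9.66 in shCTRL, and LYZ 10.0 and 8.98, whereas the monocyte marker CD14 averaged 2.47 and 2.38. Of 14 markers of other cell types, 6 were measured; EPCAM and ALB averaged at most 2.62 in either group, KRT18 7.33 in shCD39 and 7.32 in shCTRL, and NCAM1 7.26 and 7.47.

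Among the 36 measured members, 35 had a lower mean in shCD39 and 1, CENPT, a higher one. The median log2 fold change (shCD39 minus shCTRL) was -0.45, or 1.37-fold lower, beside a median of 0.01 over all named genes, of which 48% were below 0. Only SKA1, a microtubule-binding subunit of the SKA complex, fell past the threshold of an adjusted p of 0.05 over all genes. That is 1 of 36 members lower and 0 higher, against a share of 0.047% of all named genes lower and 0.047% higher (0.0941% in either direction; limma, Benjamini-Hochberg). At an unadjusted p under 0.05, 25 members were lower (69.4%) and 0 higher, against 8.13% of all genes lower and 6.54% higher. Of the members, 13 (36.1%) were at least 1.5-fold lower, against 1.77% of all genes.

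The groups did not overlap in 10 members, or 27.8%, all lower in shCD39, and 0 were higher, against 4.23% of all named genes lower and 3.61% higher. These were SKA1, CENPK, CDCA8, CENPM, SGO1, CENPN, HJURP, CENPL, INCENP and CENPO, which come from the SKA complex, the centromere network, the passenger and shugoshin group and the CENP-A loading group. For each of them the exact permutation p was 0.0286, the smallest that 4 against 4 arrays allow. That value follows from the lack of overlap by which they were picked and is not separate evidence.

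**Figure D1:**
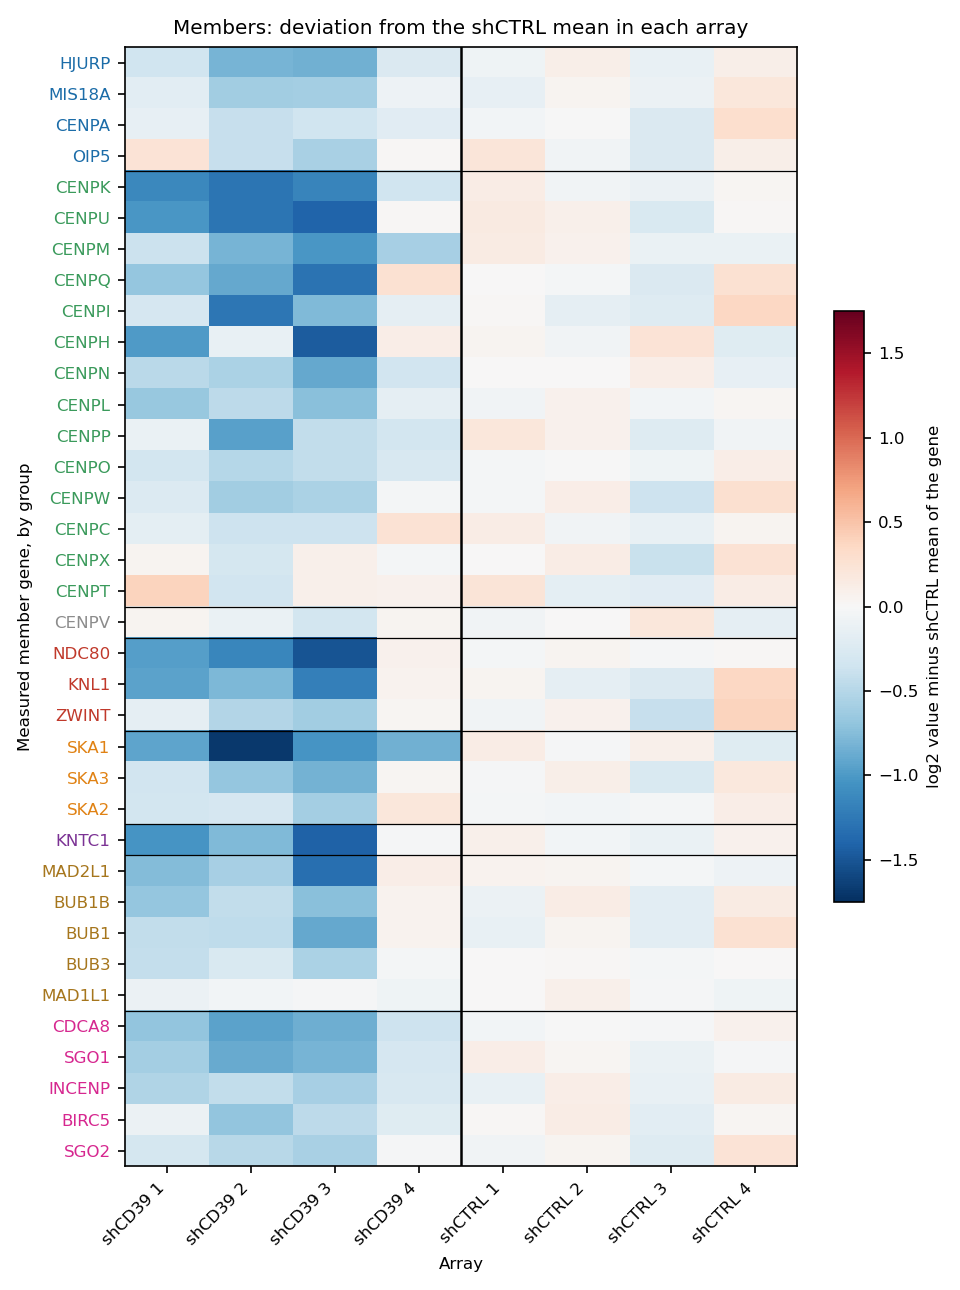
Each cell gives the log2 value of a measured member (rows, grouped by role, label colours marking the group) in one array (columns), minus the mean of that gene in the 4 shCTRL arrays. The shCD39 arrays 1 to 3 are blue in most rows, while shCD39 array 4 is blue mainly in rows such as SKA1, CENPM, CDCA8 and SGO1 and pale or red in others such as NDC80 and MAD2L1.

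The 4 shCD39 arrays did not read alike. Taking the median over the 36 members of the deviation from the shCTRL mean, shCD39 arrays 1 to 4 stood at -0.36, -0.56, -0.73 and -0.03. The shCTRL arrays 1 to 4 stood at 0.01, 0.03, -0.13 and 0.09. By this measure array 3 was the lowest and array 4 the highest in both groups, and the cause of this shared order was not tested. The shCD39 arrays 1, 2 and 3 lay below every shCTRL array in 27, 32 and 33 members. The shCD39 array 4 did so in 12 members, lay inside the shCTRL range in 19, and exceeded every shCTRL array in 5 (CENPC, CENPQ, MAD2L1, NDC80 and SKA2). In 27 members it was the highest of the 4 shCD39 arrays. The median SD of the members was accordingly 0.301 in shCD39 and 0.152 in shCTRL, beside 0.193 and 0.155 over all named genes, and 30 of the 36 members had the larger SD in shCD39, against 62.7% of all genes.

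Without shCD39 array 4, 35 members again had a lower mean in shCD39, against 47.4% of all named genes. At an unadjusted p under 0.05, 30 were lower and 0 higher, against 10.6% of all genes lower, and 19 were at least 1.5-fold lower, against 3.14%. Past the adjusted threshold, 16 members fell and 0 rose (44.4%), against 2.1% of all named genes lower and 0.746% higher, and the median log2 fold change of the members was -0.60. The 16 were SKA1, CENPK, CENPU, NDC80, KNTC1, CDCA8, SGO1, KNL1, CENPQ, CENPL, MAD2L1, CENPN, CENPM, BUB1B, HJURP and INCENP. The groups then did not overlap in 25 members, against 9.49% of all genes lower. Without both arrays numbered 4, 12 members fell, against 1.85% of all genes lower, and the groups did not overlap in 27, against 13.1%. With arrays weighted by their fit, 5 members fell, against 0.585% of all genes. Without shCTRL array 1, 0 members passed, and limma called 0 genes in all (0%), while 885 were lower and 689 higher at an unadjusted p under 0.05.

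Promoter sequences are shown for 7 members in which the cell cycle homology region (TTTGAA), an element known from promoters of mitotic genes, lies near the start, and for CENPK and CENPU, which lack it; these 9 were chosen after their values were seen. The sequences are RefSeq promoter windows of GRCh38.p14, which run from 250 bases before to 50 bases after the annotated start; 41 of the 50 members had one, the first listed being used where a gene had several (4 members). Each stretch runs 5′ to 3′ on the strand of the gene, and capitals mark TTTGAA or its complement TTCAAA and the CCAAT box or its complement ATTGG. The first stretch runs from base 21 to base 50 after the start, and the others from base -80 to base 20, with the first transcribed base as 1.
SKA1, chr18:50375066-50375095, plus strand: ggcgcggcgggcggTTTGAAttttgcttac
NDC80, chr18:2571477-2571576, plus strand: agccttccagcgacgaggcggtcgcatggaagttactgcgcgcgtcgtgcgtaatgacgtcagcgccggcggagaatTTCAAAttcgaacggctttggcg
CDCA8, chr1:37692436-37692535, plus strand: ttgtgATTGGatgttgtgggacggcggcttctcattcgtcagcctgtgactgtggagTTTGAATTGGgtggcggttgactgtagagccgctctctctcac
CENPN, chr16:81007134-81007233, plus strand: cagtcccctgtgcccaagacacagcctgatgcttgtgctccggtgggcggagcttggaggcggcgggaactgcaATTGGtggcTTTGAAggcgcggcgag
INCENP, chr11:62123931-62124030, plus strand: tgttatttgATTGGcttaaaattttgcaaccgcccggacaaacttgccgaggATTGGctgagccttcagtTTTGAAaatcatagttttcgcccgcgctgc
SKA3, chr13:21176533-21176632, minus strand: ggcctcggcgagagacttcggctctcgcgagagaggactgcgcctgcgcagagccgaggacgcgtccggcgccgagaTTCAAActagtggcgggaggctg
BUB1B, chr15:40160989-40161088, plus strand: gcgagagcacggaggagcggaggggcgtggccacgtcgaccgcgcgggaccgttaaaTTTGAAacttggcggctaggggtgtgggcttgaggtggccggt
CENPK, chr5:65563149-65563248, minus strand: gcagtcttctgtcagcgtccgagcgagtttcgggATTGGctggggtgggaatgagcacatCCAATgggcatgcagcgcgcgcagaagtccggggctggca
CENPU, chr4:184734077-184734176, minus strand: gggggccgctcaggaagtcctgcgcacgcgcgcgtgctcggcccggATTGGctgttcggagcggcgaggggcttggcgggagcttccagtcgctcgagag

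Searched on both strands of the 300-base windows, TTTGAA was found in 17 of 41 members (41.5%), against 15.4% of the 27305 genes with a window. In 13 of these 17 its first base lay within 40 bases of the start. The matching share over all genes was not computed, so this position is not shown to be particular to the members. CCAAT was found in 25 members (61%), against 35.7% of all genes, and the E2F-like letters GCGGGAA in 9 (22%), against 6.6%. In CDCA8 one TTTGAA and one CCAAT match share a base, and that was the only overlap of the pair among the members. The windows of CENPK and CENPU hold CCAAT and no TTTGAA, although these genes had the largest log2 fold changes after SKA1. Over measured members with a window, the median log2 fold change was -0.46 in the 13 with TTTGAA (range -1.12 to -0.16). It was -0.36 in the 15 without TTTGAA (range -0.98 to 0.05), so the ranges overlapped widely. At least 1.5-fold lower were 4 of the 13 with TTTGAA and 5 of the 15 without. For CCAAT the medians were -0.444 in the 18 with it and -0.4457 in the 10 without. For GCGGGAA they were -0.4203 in the 4 with it and -0.4457 in the 24 without. The measured members MIS18A, CENPH, CENPL, CENPM, KNL1, KNTC1, BUB3 and BIRC5 had no window and are in none of these sets. Their log2 fold changes ran from -0.81 (KNTC1) to -0.32 (BUB3), so the comparisons of medians leave out several large falls.

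The SKA complex, a trio of subunits that couples kinetochores to shortening microtubules, was measured in full. SKA1 read 6.20, 5.42, 6.09 and 6.28 in shCD39 arrays 1 to 4, against 7.25, 7.10, 7.21 and 6.91 in the shCTRL arrays. Every shCD39 array, array 4 included, was below every shCTRL array. The means were 6.0 ± 0.39 and 7.12 ± 0.15 (SD, n = 4 arrays each), a 2.17-fold fall (log2 fold change -1.12, SE 0.18, limma adjusted p = 0.048, exact permutation p = 0.0286, two-sided). SKA1 stood just inside the threshold: leaving out 1 array in turn gave log2 fold changes from -1.21 to -0.93, and the adjusted p was between 0.0928 and 0.193 without any one of shCD39 arrays 1 and 3 and shCTRL arrays 1 to 3. The call was also lost with quantile normalization (-1.05, limma adjusted p = 0.0542) and with cyclic loess (-1.05, 0.0540). A block on the replicate number lost the call too (-1.12, limma adjusted p = 0.0814).

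SKA3, the phosphorylated subunit that links the complex to the NDC80 complex, read 8.54, 8.19, 8.05 and 8.91 in shCD39, against 8.85, 8.97, 8.61 and 9.06 in shCTRL (log2 fold change -0.45, SE 0.18, limma adjusted p = 0.269). Here shCD39 array 4 lay among the shCTRL arrays and the other 3 below them. SKA2, the smallest subunit, read 5.50, 5.53, 5.23 and 6.01 in shCD39, against 5.78, 5.77, 5.78 and 5.93 in shCTRL (log2 fold change -0.25, SE 0.15, limma adjusted p = 0.495), and its shCD39 array 4 was the highest of all 8. The subunits of this complex therefore differed in shCD39 array 4, with SKA1 below the shCTRL range, SKA3 inside it and SKA2 above it.

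**Figure D2:**
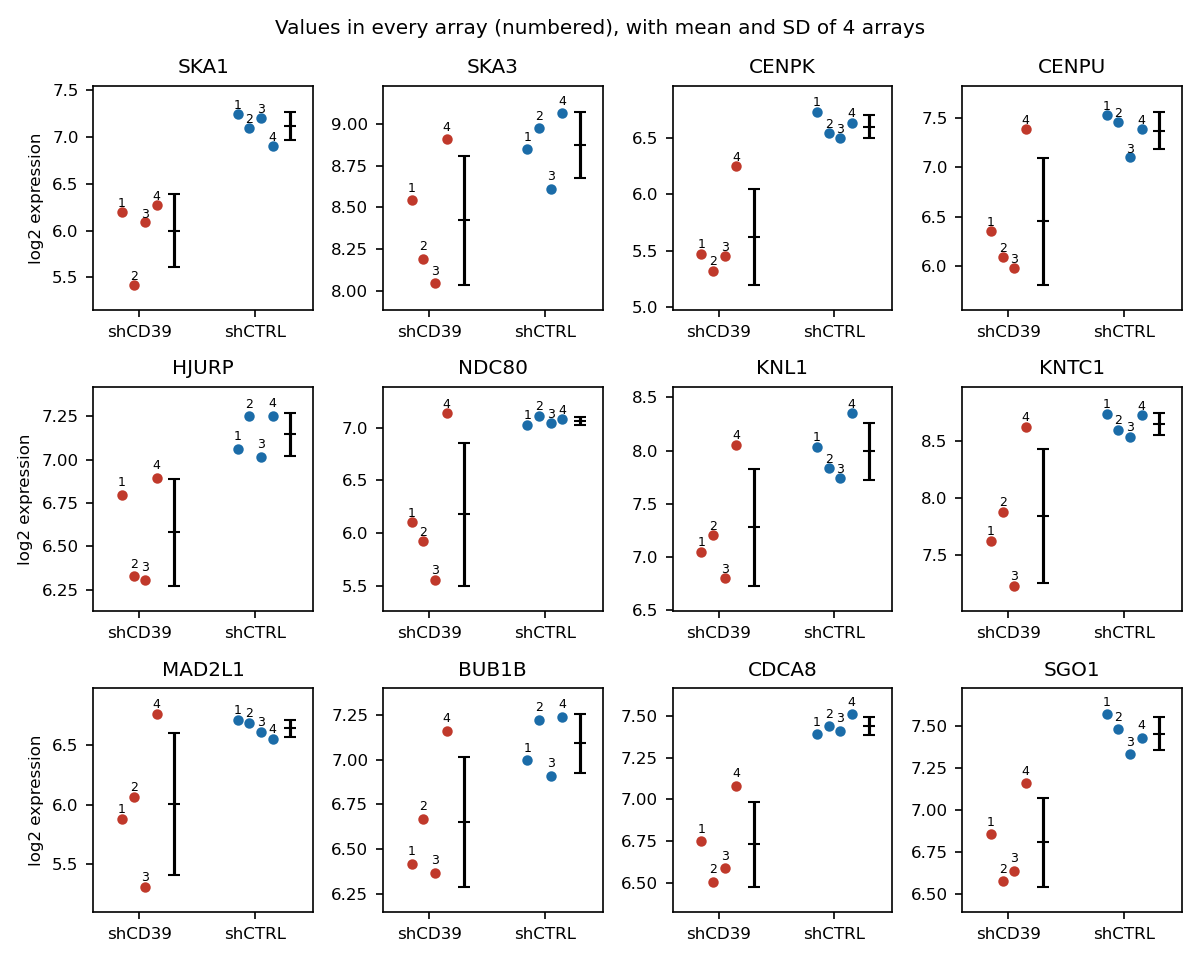
Log2 expression of 12 members in every array, shCD39 in red on the left and shCTRL in blue on the right; digits number the arrays and black bars give the mean and SD of 4 arrays, and each panel has its own axis. In SKA1, CENPK, HJURP, CDCA8 and SGO1 all 4 shCD39 arrays lie below the shCTRL arrays, whereas in the other 7 panels shCD39 array 4 lies within or above them.

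In the constitutive centromere network, 14 of 15 genes were measured: 13 had lower means in shCD39, 0 passed the threshold and 6 did without shCD39 array 4. Over all named genes, 0.047% fell past the threshold with all 8 arrays and 2.1% without that array. The median log2 fold change was -0.54. The groups did not overlap in 5, all lower in shCD39, against 4.23% of all named genes lower. CENPK, a subunit of the CENP-H/I/K/M module, read 5.47, 5.32, 5.45 and 6.25 in shCD39, against 6.73, 6.54, 6.5 and 6.63 in shCTRL. All shCD39 arrays were lower, with array 4 between its group and the shCTRL arrays (log2 fold change -0.98, SE 0.18, limma adjusted p = 0.0782, and 0.00271 without shCD39 array 4). CENPU, which helps recruit the mitotic kinase PLK1, read 6.36, 6.09, 5.98 and 7.39 in shCD39, against 7.54, 7.46, 7.10 and 7.39 in shCTRL. Its shCD39 arrays 1 to 3 were below every shCTRL array and array 4 was inside their range (log2 fold change -0.92, SE 0.26, adjusted p = 0.143, and 0.00462 without array 4).

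The other subunits of the CENP-H/I/K/M module gave log2 fold changes of -0.70 for CENPM, -0.62 for CENPI and -0.62 for CENPH. CENPM read 6.07, 5.63, 5.43 and 5.87 in shCD39, against 6.59, 6.52, 6.33 and 6.33 in shCTRL, so all 4 shCD39 arrays were lower (SE 0.14, limma adjusted p = 0.0822). CENPH read 4.82, 5.68, 4.35 and 5.92 in shCD39, against 5.86, 5.75, 6.05 and 5.60 in shCTRL. In CENPH the shCD39 arrays split, with arrays 1 and 3 far below the shCTRL arrays and arrays 2 and 4 among them (SE 0.29, adjusted p = 0.349). CENPL and CENPN, partners in the module that recognises CENP-A nucleosomes, had -0.50 and -0.57 with no overlap of the groups (adjusted p = 0.123 and 0.1).

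CENPO, CENPP, CENPQ and CENPU form a further module, and CENPO had -0.39, CENPP -0.45 and CENPQ -0.65. Without shCD39 array 4 CENPQ had -0.96 (limma adjusted p = 0.0177), as that array read 6.19, level with the highest shCTRL array at 6.19. CENPC, the scaffold that ties CENP-A to the MIS12 complex, had -0.16 (SE 0.14, limma adjusted p = 0.665). The histone-fold members of the network gave smaller values than the H/I/K/M module: CENPW had -0.36, CENPX -0.05 and CENPT 0.05. CENPX read 6.55, 6.19, 6.59 and 6.46 in shCD39, against 6.5, 6.62, 6.11 and 6.75 in shCTRL, and the groups covered each other (adjusted p = 0.917). CENPT, the arm of the network that binds the NDC80 complex independently of CENPC, had SE 0.16 and adjusted p = 0.918, with means of 5.28 ± 0.30 in shCD39 and 5.22 ± 0.21 in shCTRL.

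CENP-A and its loading machinery had 4 measured genes, all with lower means in shCD39, a median log2 fold change of -0.32 and 0 past the threshold. CENPA itself, the histone variant, had -0.28 (SE 0.13, limma adjusted p = 0.355), with means of 5.76 ± 0.12 in shCD39 and 6.04 ± 0.22 in shCTRL. HJURP, the chaperone that deposits CENP-A, read 6.80, 6.33, 6.31 and 6.90 in shCD39, against 7.06, 7.25, 7.02 and 7.25 in shCTRL. The groups did not overlap (log2 fold change -0.56, SE 0.15, adjusted p = 0.13, and 0.0381 without shCD39 array 4). MIS18A and OIP5 form the MIS18 complex that licenses deposition. MIS18A read 6.67, 6.25, 6.27 and 6.77 in shCD39, against 6.72, 6.91, 6.75 and 7.05 in shCTRL (-0.37, SE 0.14, adjusted p = 0.263), with array 4 just inside the shCTRL range. OIP5 read 5.45, 4.81, 4.65 and 5.24 in shCD39, against 5.43, 5.15, 4.95 and 5.32 in shCTRL (-0.18, SE 0.18, adjusted p = 0.711), and here shCD39 array 1 exceeded every shCTRL array.

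Of the KNL1, MIS12 and NDC80 complexes, the microtubule-binding core, only 3 of 10 genes were measured and no MIS12 subunit was among them. All 3 averaged lower in shCD39 (median log2 fold change -0.71), with 0 past the threshold, or 2 without shCD39 array 4. Without that array, 2.1% of all named genes fell past the threshold. NDC80, the subunit whose head domain binds microtubules, read 6.10, 5.92, 5.56 and 7.14 in shCD39, against 7.03, 7.11, 7.04 and 7.08 in shCTRL. The shCTRL arrays were within 0.1 of each other, shCD39 arrays 1 to 3 lay far below them and shCD39 array 4 was above all (log2 fold change -0.89, SE 0.26, limma adjusted p = 0.157; -1.21 and 0.00456 without array 4). KNL1, the scaffold on which BUB proteins load, read 7.05, 7.21, 6.80 and 8.06 in shCD39, against 8.04, 7.84, 7.74 and 8.35 in shCTRL (-0.71, SE 0.24, adjusted p = 0.197, and 0.0158 without array 4). ZWINT, the KNL1 partner that helps recruit the RZZ complex, read 7.34, 6.97, 6.89 and 7.53 in shCD39, against 7.43, 7.57, 7.09 and 7.88 in shCTRL (-0.31, SE 0.18, adjusted p = 0.484).

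Of the RZZ complex, which brings dynein and MAD1 to unattached kinetochores, KNTC1 (the ROD subunit) was measured. It read 7.62, 7.88, 7.23 and 8.62 in shCD39, against 8.74, 8.6, 8.54 and 8.73 in shCTRL (log2 fold change -0.81, SE 0.23, limma adjusted p = 0.15, and 0.0079 without shCD39 array 4). As for NDC80 and KNL1, shCD39 arrays 1 to 3 were below the shCTRL range and array 4 was not.

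All 5 listed spindle checkpoint genes were measured: all averaged lower in shCD39 (median log2 fold change -0.43), and 0 passed the threshold, or 2 without shCD39 array 4. The share of all named genes that fell past the threshold without that array was 2.1%. In none of the 5 did array 4 fall below the shCTRL range. MAD2L1, which encodes the MAD2 inhibitor of CDC20, read 5.88, 6.06, 5.31 and 6.76 in shCD39, against 6.71, 6.69, 6.61 and 6.55 in shCTRL (-0.63, SE 0.23, limma adjusted p = 0.236, and 0.0227 without array 4). BUB1B, which encodes BUBR1 of the mitotic checkpoint complex, read 6.42, 6.67, 6.37 and 7.16 in shCD39, against 7.0, 7.22, 6.91 and 7.24 in shCTRL (-0.44, SE 0.17, adjusted p = 0.256, and 0.0377 without array 4). In both genes shCD39 arrays 1 to 3 were below all shCTRL arrays. The kinase BUB1 had -0.43 (SE 0.18) and BUB3, the adaptor of both BUB proteins, -0.32 (SE 0.12). MAD1L1, which encodes MAD1, read 5.37, 5.42, 5.44 and 5.38 in shCD39, against 5.47, 5.56, 5.44 and 5.38 in shCTRL, and the groups overlapped (log2 fold change -0.06, SE 0.10, limma adjusted p = 0.821).

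All 5 listed genes of the passenger complex and shugoshins were measured, and all had lower means in shCD39 at a median log2 fold change of -0.46. The list leaves out AURKB, the kinase of the complex, which was listed with the partners and had -0.58 (SE 0.17, limma adjusted p = 0.149) with no overlap of the groups. Of the 5, 0 passed the threshold, or 3 without shCD39 array 4, against 2.1% of all named genes lower without it. In 4 of the 5, array 4 lay below every shCTRL array. In 3 the groups did not overlap at all, against 4.23% of all named genes lower. CDCA8, the borealin subunit, read 6.75, 6.51, 6.59 and 7.08 in shCD39, against 7.39, 7.44, 7.41 and 7.51 in shCTRL (-0.71, SE 0.13, limma adjusted p = 0.0782, and 0.00725 without array 4). SGO1, the shugoshin that guards centromeric cohesin in mitosis, read 6.86, 6.57, 6.64 and 7.16 in shCD39, against 7.57, 7.48, 7.33 and 7.43 in shCTRL (-0.65, SE 0.14, adjusted p = 0.0849, and 0.011 without array 4). In both genes every shCD39 array was lower, array 4 least so. INCENP, the scaffold of the complex, had -0.46 (SE 0.12, adjusted p = 0.116) and BIRC5, which encodes survivin, -0.36 (SE 0.14, adjusted p = 0.257). SGO2 read 5.25, 5.06, 4.98 and 5.53 in shCD39, against 5.48, 5.59, 5.33 and 5.79 in shCTRL (-0.35, SE 0.15, adjusted p = 0.296), with array 4 inside the shCTRL range.

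CENPV, a microtubule-associated protein of the centromere, was the measured gene among the other CENP proteins. It read 7.33, 7.16, 6.96 and 7.33 in shCD39, against 7.22, 7.29, 7.48 and 7.12 in shCTRL, and the groups overlapped (log2 fold change -0.08, SE 0.12, limma adjusted p = 0.819).

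**Figure D3:**
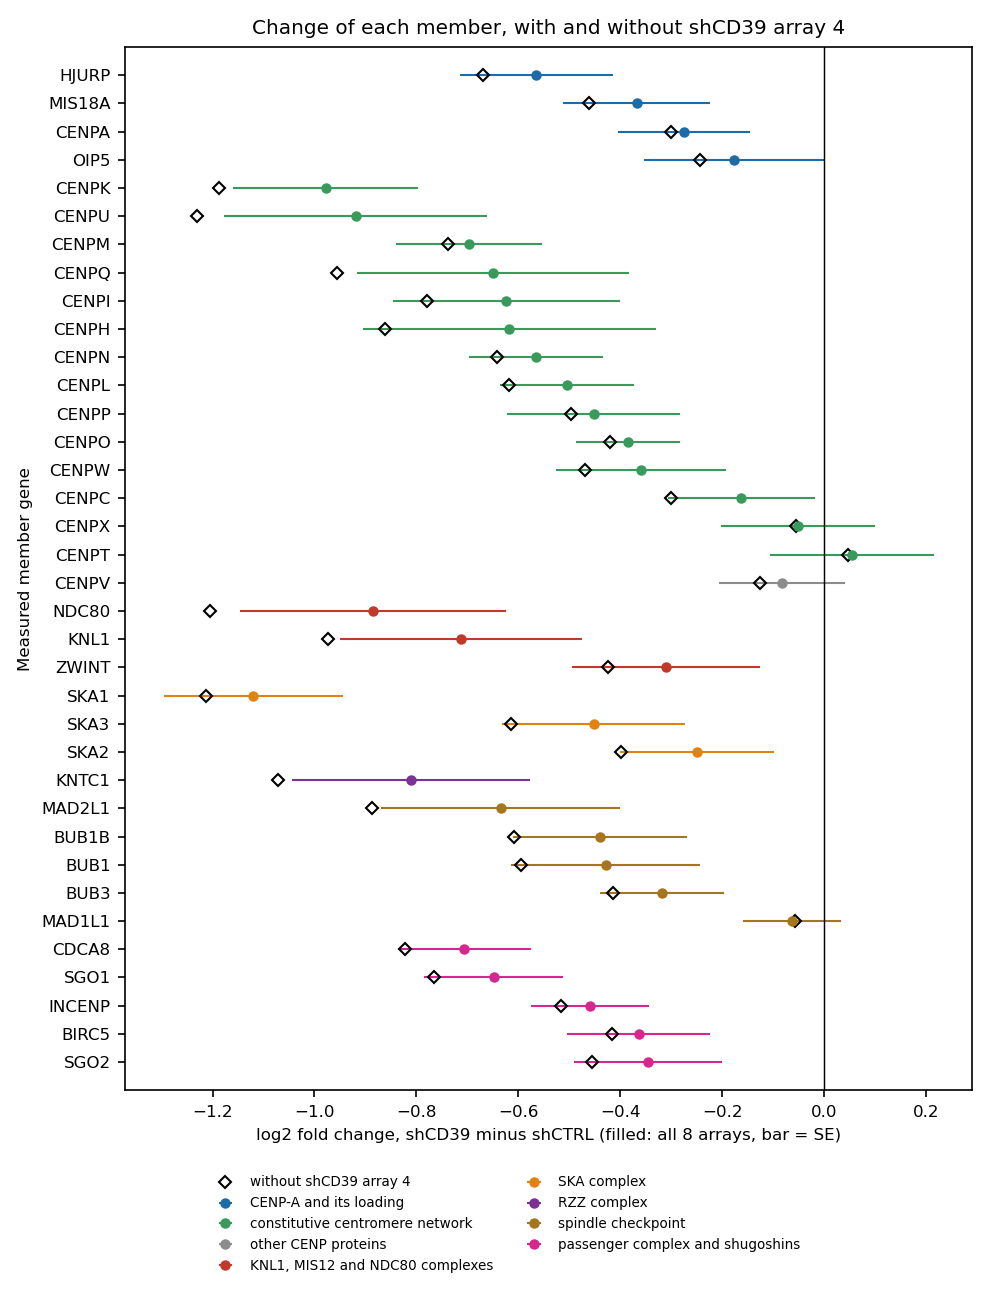
Log2 fold change (shCD39 minus shCTRL) of the 36 measured members, coloured by group, with bars of 1 SE from the fit to all 8 arrays; open diamonds give the value without shCD39 array 4. Values run from -1.12 (SKA1) to 0.05 (CENPT), and the diamonds lie farthest from the filled points in CENPU, CENPQ and NDC80.

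Between the groups, medians of the log2 fold change with all arrays ran from -0.71 for the KNL1, MIS12 and NDC80 complexes to -0.32 for CENP-A and its loading, leaving aside the groups with 1 measured gene. The centromere network stood at -0.54, the passenger complex and shugoshins at -0.46, the SKA complex at -0.45 and the checkpoint at -0.43. The groups differed in how shCD39 array 4 read. The median deviation of that array from the shCTRL mean was -0.29 for the passenger complex and shugoshins, -0.14 for CENP-A and its loading and -0.10 for the centromere network, against 0.06 for the KNL1, MIS12 and NDC80 complexes, 0.07 for the checkpoint and 0.03 for the SKA complex. Array 4 thus lay below the shCTRL arrays in the passenger and shugoshin group, where they ran from -0.13 to 0.07, and just above them in the checkpoint group, where they ran from -0.04 to 0.05; in the other 4 groups it was inside their range. Differences between the groups of genes were not tested.

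**Figure D4:**
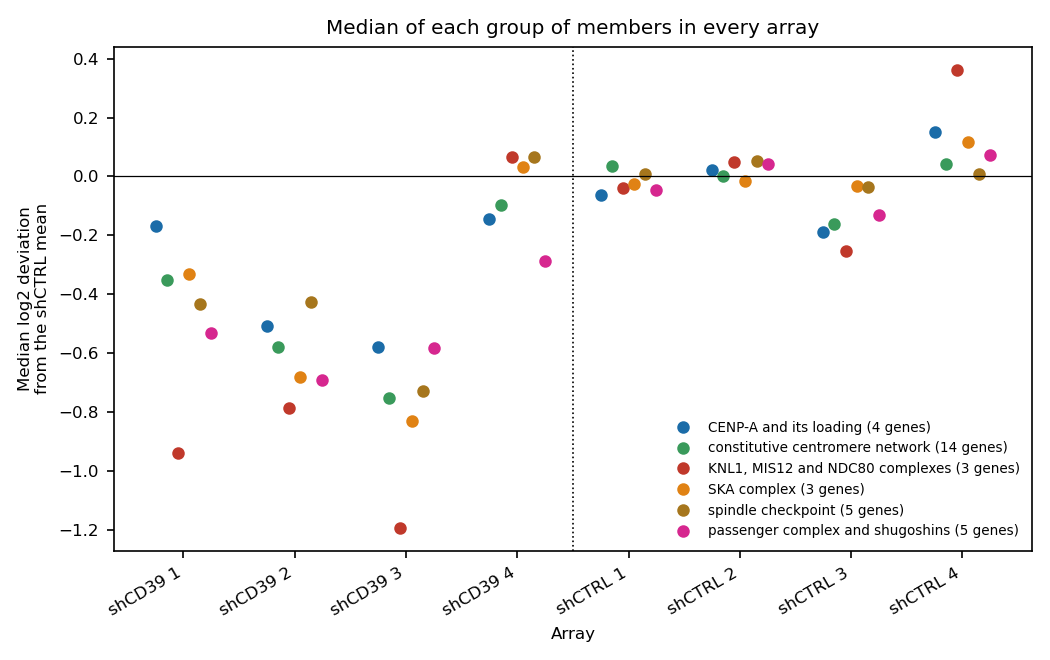
For each array, the median over the genes of a group of the log2 deviation from the shCTRL mean, for the 6 groups with more than 1 measured gene; shCD39 arrays are left of the dotted line. In shCD39 arrays 1 to 3 all 6 medians are negative, down to -1.19 for the KNL1, MIS12 and NDC80 complexes, and in shCD39 array 4 they run from -0.29 to 0.07.

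Other genes of the pathway, listed apart from the members, had values of the same kind. Of 30 partners in checkpoint signalling and attachment, 24 were measured and all had lower means in shCD39 (median log2 fold change -0.42); 0 passed the threshold in either direction, or 5 lower without shCD39 array 4. The largest were SPDL1, which recruits dynein to kinetochores, at -0.93 (SE 0.22, limma adjusted p = 0.106), PLK1 at -0.92 (SE 0.23, 0.113) and HASPIN, the histone kinase that positions the passenger complex, at -0.89 (SE 0.19, 0.084). Cohesin and condensin genes had a median of -0.35 over 13 measured, 12 of them lower, with 0 past the threshold and 5 lower without array 4; the acetyltransferase ESCO2 had -0.78, SMC2 of condensin -0.64 and SMC3 of cohesin -0.58. The anaphase-promoting complex and its partners had a median of -0.21 over 19, with 14 lower and 5 higher and 0 past the threshold, or 2 lower without array 4; separase (ESPL1) had -0.57, the inhibitor FBXO5 -0.49 and the E2 enzyme UBE2S -0.30.

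DNA replication and proliferation markers were low in the same arrays as the members. All 18 measured of 23 had lower means in shCD39 (median log2 fold change -0.60), and 0 passed the threshold. Without shCD39 array 4, 13 fell past it, against 2.1% of all named genes. Their median deviation from the shCTRL mean was -0.50, -0.84, -0.96 and -0.16 in shCD39 arrays 1 to 4, against -0.05, 0.10, -0.26 and 0.13 in the shCTRL arrays, so array 4 was again nearest to the shCTRL arrays. CDT1, which licenses replication origins, had -0.99, and the helicase subunits MCM2 and MCM6 had -0.91 and -0.84. In the same arrays the myeloid markers CSF1R, LYZ and TYROBP had log2 fold changes of 1.36, 1.07 and 1.06 (limma adjusted p = 0.0849, 0.0926 and 0.0822). Of the 9 measured myeloid markers (15 listed), 5 had higher means in shCD39, with 0 past the threshold. The 4 with lower means were MPO at -0.40, FLT3 at -0.29, MEIS1 at -0.28 and CD4 at -0.01. The median of the 9 was 0.09. Of the markers of other cell types, 5 of 6 had higher means in shCD39, PECAM1 by 0.77, KRT8 by 0.25 and EPCAM by 0.22 on the log2 scale, with 0 past the threshold. Without shCD39 array 4, 3 myeloid markers rose past the threshold, CSF1R by 1.64, LYZ by 1.33 and TYROBP by 1.31 (limma adjusted p = 0.00774, 0.00475 and 0.00414), and 6 of 9 had higher means. Of all named genes, 0.746% then rose past the threshold. In the list of markers of other cell types, PECAM1 then rose by 0.87 (limma adjusted p = 0.0255), the 1 gene past the threshold, and 4 of 6 had higher means. That list was drawn up by name, and PECAM1 is not shown here to mark another cell type. The summed log2 levels of the measured genes ran from 63.0 to 67.1 in shCD39 and from 61.6 to 63.1 in shCTRL for the myeloid markers, from 29.7 to 31.1 and from 28.8 to 29.6 for the markers of other cell types, and from 129.4 to 142.0 and from 141.2 to 148.3 for the replication markers. No marker is at 0 on this scale, and the part of these genes in the values of the members was not tested.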

How the data were processed

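Total RNA of MOLM-14 cells (spelt MOML14 in one label), 4 arrays per hairpin, was hybridised to Affymetrix arrays after labelling with the GeneChip WT PLUS kit, per the labels' protocols. The deposited values are log2 expression per probe set (53617 on each array); per the submitters' processing notes the authors used the oligo package and RMA, with no version stated. The genome build is not given in the sources used here. The array medians ran from 3.13 to 3.17, 0 pairs of arrays were identical, and array number limits the precision.

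Of the probe sets, 16098 had a symbol in the platform annotation, checked through Entrez IDs against RefSeq (GRCh38.p14; 0 symbols differed), and 37519 are unnamed here. The probe set with the highest mean stood for a gene (14884 genes). Groups were compared with limma 3.58.1 in R 4.3.3 (lmFit, eBayes, two-sided, Benjamini-Hochberg over all genes, threshold 0.05), tested on simulated data. Single values were also compared by exact permutation. Figures used matplotlib 3.10.9 in Python 3.11.15. The members and lists were chosen with earlier results of these data known. Every measured member has its log2 fold change; values in every array are given for ENTPD1, SKA1 and, per group, the members with the 2 largest and the smallest absolute changes; CENPM and CENPH were added after their values were seen. Other lists give up to 3 genes with the largest change. The myeloid list also gives its genes with lower means, added after their values were seen. Alternatives were 2 normalizations, a filter on dim genes (mean under 4), the mean of probe sets, array weights, an intensity trend with robust prior, a block on the replicate number, and leaving out arrays.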

Additional observations from a re-analysis of the deposited data

Results flagged for a closer look

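In each group of 4 arrays, the array farthest out was set against the rest for ENTPD1 and the 36 members, 74 sets in all, of which 2 held an array far from the others; chance alone picks out about 1 set in 20. CENPK read 6.25 in shCD39 array 4, while the other shCD39 arrays lay between 5.32 and 5.47. SKA2 read 5.93 in shCTRL array 4, while the other shCTRL arrays lay between 5.77 and 5.78.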

How the results depend on the processing

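The sign of the log2 fold change was the same under all 16 alternatives in 34 of 36 measured members; the exceptions were the values near 0, CENPX (0.0269 with quantile normalization, 0.0133 with cyclic loess, 0.0304 without both arrays numbered 4, and -0.1803 to 0.0354 when 1 array was left out) and CENPT (-0.0581 to 0.1851 when 1 array was left out). The median change of the members ran from -0.60 to -0.36 when 1 array was left out and from -0.53 to -0.38 otherwise. Members past the threshold numbered 1 as deposited, 0 with quantile normalization, 0 with cyclic loess, 3 without dim genes, 5 with array weights, 0 with the replicate block, 12 without both arrays numbered 4, and 0 to 16 when 1 array was left out. All genes past the threshold numbered 14 (7 higher, 7 lower), and 5 (all higher) with quantile normalization, 10 (7 higher, 3 lower) with cyclic loess, 44 without dim genes, 22 with the intensity trend, 124 with array weights, 6 with the replicate block, 368 without both arrays numbered 4, and 0 to 423 when 1 array was left out. Members whose groups did not overlap numbered 10 as deposited, 10 to 25 when 1 array was left out and 10 to 27 otherwise. The 27 were those without both arrays numbered 4. BUB3 joined the 10 with quantile normalization and with cyclic loess. Of all named genes, 4.23% did not overlap and were lower as deposited, and 13.1% without both arrays numbered 4. Whether the replicate numbers pair the arrays is not settled. Deviations from the group means of same-numbered arrays correlated at only -0.04 to 0.06. The median deviation of the members, however, was lowest in array 3 and highest in array 4 of both groups. The block changed the call of SKA1 (limma adjusted p = 0.0814) without changing its log2 fold change. The cause of these changes was not tested, except that leaving out arrays or dim genes reduces what is fitted. With 4 arrays a group and no detection calls in the table, signal over background is unknown for each member.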
